A study of Mus musculus with 6 samples.

Results

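Pancreatic acinar cells secrete the enzymes that break down dietary fat and starch. The genes described here are Pnlip, the main triglyceride lipase, its relatives Pnliprp1 and Pnliprp2, Clps, whose product colipase anchors the lipase to fat droplets coated with bile salts, Cel, a lipase activated by bile salts, Pla2g1b, a secreted phospholipase, and Amy2, pancreatic amylase, which cleaves starch. The platform annotation names 11023 genes by probes with exactly 1 symbol, and 5 of the 7 listed genes were among them. Of the 21888 probes in the table, 23 belonged to these genes, 9 for Clps, 10 for Pla2g1b, 1 for Cel, 1 for Pnliprp2 and 2 for Amy2. Pnlip and Pnliprp1 had no probe under this rule and are not analysed here. All 23 probes had a value on at least 4 of the 6 arrays and were tested.

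The study set RNA from the pancreas of Sox4-/- mouse embryos (KO) against RNA from wild-type (WT) littermates, both taken at embryonic day 12.5. The knock-out of Sox4, which encodes a transcription factor, was homozygous in the KO embryos and was not restricted to the pancreas. Each of 6 arrays with 2 channels held KO RNA in channel 2 and WT RNA in channel 1, per the labels, and gave 1 log2 ratio per probe. The labels of arrays 1 and 2 state that the tissue was combined into 2 groups before RNA isolation, so 1 KO pool and 1 WT pool may underlie several arrays. All p-values therefore describe array-to-array spread, possibly technical, rather than spread between embryos. Each RNA sat in the same channel throughout, so a channel bias and a difference between the RNAs cannot be told apart.

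The ratio is read as KO over WT, which is likely from the channel order and the titles but not settled, because no source used here gives the dyes or the direction. A value under 0 then means a lower level in the RNA labelled KO than in the RNA labelled WT. Neither Sox4 probe was past the threshold, an adjusted p under 0.05. They averaged -0.03 ± 0.25 and -0.09 ± 0.13 (SD, n = 6 arrays). On arrays 1 to 6 the first stood at -0.16, 0.41, -0.35, 0.01, -0.01 and -0.06, and the second at -0.06, -0.03, -0.35, -0.01, -0.10 and 0.00. No source used here places these probes inside or outside the deletion, so Sox4 checks neither the labels nor the direction. In whole-pancreas RNA, fewer cells of a type and less RNA per cell cannot be told apart. The table holds ratios only, so no level of any gene in either RNA is known and the acinar identity of the tissue could not be checked by level.

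At this stage most acinar differentiation still lies ahead, and the digestive enzyme genes are being switched on in the tips of the branching epithelium. Their promoters are classic targets of PTF1, a complex of PTF1A and an RBPJ-type protein that binds an E-box beside a TC-box, and many also carry sites for the nuclear receptor NR5A2. RefSeq promoter windows on build GRCm38.p6, from 250 bases before to 50 bases after the gene start, were searched on both strands for the E-box form CACCTG, the TC-box core TTCCCA and the NR5A2 half-site AAGGTCA. No 2 of these motifs overlap in the sequences shown. Entries existed for 5 of the 6 member genes searched by symbol, the exception being Clps. Cel and Pla2g1b are shown because their windows lie at opposite ends of the count, with 6 matches and 0. Capitals mark the matches on either strand.
Cel, chr2:28563354-28563653, minus strand: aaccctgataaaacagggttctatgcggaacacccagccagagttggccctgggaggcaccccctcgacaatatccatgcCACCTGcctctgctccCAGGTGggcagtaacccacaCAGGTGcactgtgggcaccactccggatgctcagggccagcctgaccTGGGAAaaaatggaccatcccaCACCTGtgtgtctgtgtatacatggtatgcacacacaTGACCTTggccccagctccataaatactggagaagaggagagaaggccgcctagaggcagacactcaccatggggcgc
Pla2g1b, chr5:115465892-115466191, plus strand: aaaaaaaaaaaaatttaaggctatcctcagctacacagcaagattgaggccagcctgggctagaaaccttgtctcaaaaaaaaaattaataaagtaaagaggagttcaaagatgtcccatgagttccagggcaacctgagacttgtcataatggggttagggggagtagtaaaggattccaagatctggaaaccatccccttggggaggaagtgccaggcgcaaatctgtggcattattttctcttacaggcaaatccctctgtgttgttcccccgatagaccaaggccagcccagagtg

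The Cel window held 4 matches to CACCTG, 1 to TTCCCA and 1 to AAGGTCA. The Pnliprp2 window held 1 match to CACCTG, while those of Pnlip and Pnliprp1 held 1 and 2 matches to TTCCCA. Among all 32851 promoter windows, 20.2% held CACCTG, 25.6% held TTCCCA and 4.72% held AAGGTCA, so matches to the first 2 are common. A match describes the sequence alone.

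Clps, the colipase gene, was lower in the RNA labelled KO than in the RNA labelled WT at most of its probes. Of its 9 probes, 7 were past the threshold under 0, with means from -0.90 to -0.59, 1.5-fold to 1.87-fold lower, and limma adjusted p from 0.0197 to 0.0448. All 42 array values of these 7 probes were under 0, but the probes were picked by a test on the same values. The 2 Clps probes not past the threshold were under 0 on 3 and 1 of 6 arrays. Of all 23 member probes, 8 were past the threshold under 0 and 0 above 0, the eighth being a Pla2g1b probe. Among all 21247 tested probes, 3.53% were past it under 0 and 1.96% above 0, 5.49% in either direction. At an unadjusted limma p under 0.05 there were 8 of 23 member probes (34.8%), 8 under 0 and 0 above 0. In either direction 27.6% of all tested probes had such a p. The median of the member probe means was -0.08, against 0.03 over all tested probes, and 14 of 23 member means were under 0, where 46.3% of all tested probes were. The 9 Clps probes share 1 target and are not replicates of the comparison.

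The Clps probe furthest under 0, ZX-00129I19, averaged -0.90 ± 0.25 (SD, n = 6), with an adjusted p of 0.0207. Its values on arrays 1 to 6 were -0.89, -1.15, -0.42, -0.98, -0.94 and -1.02. Array 3 thus stood closest to 0 and array 2 furthest from it. The probe ZX-00124H16 averaged -0.89 ± 0.30, with an adjusted p of 0.0251, and had -0.76, -0.38, -1.20, -0.996, -0.88 and -1.11 on the same arrays. Here the order was turned round, with array 2 closest to 0 and array 3 furthest from it.

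The other Clps probes past the threshold followed one or the other of these courses. ZX-00129M05, at -0.84 ± 0.26, and ZX-00129A18, at -0.83 ± 0.20, had their smallest change on array 3, at -0.39 and -0.50. ZX-00129G15, at -0.75 ± 0.28, ZX-00129C24, at -0.64 ± 0.34, and ZX-00128F05, at -0.59 ± 0.23, had their smallest change on array 2, at -0.21, -0.15 and -0.26. On arrays 4, 5 and 6 all 7 probes lay between -1.11 and -0.67.

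The remaining Clps probes, ZX-00128F01 and ZX-00128D01, did not show this change. ZX-00128F01 averaged 0.02 ± 0.37, with a lowest value of -0.31, a median of -0.02 and a highest of 0.66. ZX-00128D01 averaged 0.12 ± 0.26, with a lowest value of -0.29, a median of 0.10 and a highest of 0.40. Their adjusted p were 0.941 and 0.486. Of their ratios, 33.3% and 50% were quotients of whole numbers up to 20, against 23.2% of all values in the table. Among the member probes past the threshold the highest such share was 33.3%. The 95% t intervals of their means were -0.37 to 0.41 and -0.15 to 0.39, against -0.83 to -0.35 for ZX-00128F05, whose name gives the same plate. No source used here says which part of the Clps transcript each probe covers.

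**Figure D1:**
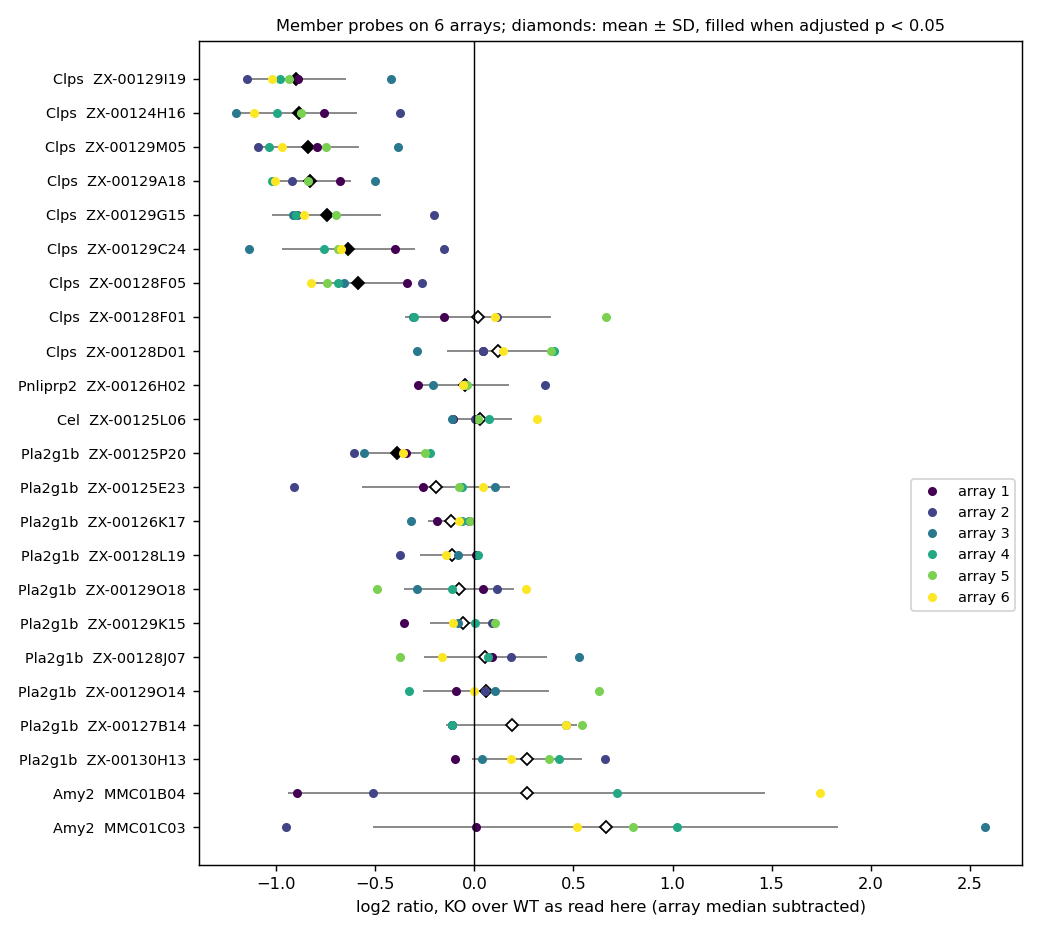
Log2 ratio of each of the 23 member probes on the 6 arrays (coloured points), read as KO over WT, with the mean and SD per probe (diamonds with bars, filled where the adjusted p is under 0.05). The 7 filled Clps probes lie between -0.90 and -0.59 on average, apart from the other Clps probes and most of the Pla2g1b probes around 0, and the Amy2 probes spread from -0.95 to 2.58.

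The course of 6 of these 7 Clps probes over arrays 2 and 3 ran the same way as that of their well row on the source plate, as the last letter and number of the probe name are read here. The 3 probes past the threshold in rows A, I and M had -1.15 to -0.92 on array 2 and -0.50 to -0.39 on array 3. The other 4, in rows C, F, G and H, had -0.38 to -0.15 on array 2 and -1.20 to -0.66 on array 3. Grouped in this way, the ranges did not overlap on either array. The row groups also differed on these arrays in the whole table. Probes in rows A, E, I and M had a median of -0.38 on array 2 and 0.28 on array 3, against 0.19 and -0.10 for rows C, G, K and O and 0.20 and -0.23 for rows D, H, L and P. Rows B, F, J and N, at -0.09 and 0.12, moved the way of rows A, E, I and M, so ZX-00128F05, in row F, ran against its own row group. Its -0.26 on array 2 lay within the range of the probes in rows C, G and H. ZX-00128F01, also in row F but not past the threshold, had 0.11 on array 2 and -0.31 on array 3.

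**Figure D2:**
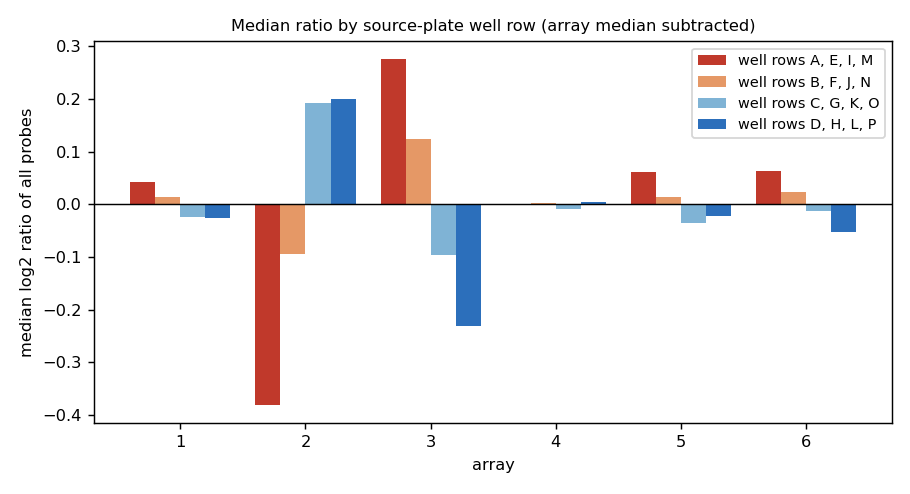
Median log2 ratio of all probes with a well position (bars, vertical axis) on each array (horizontal axis), by well row in steps of 4, after each array's median was subtracted. Rows A, E, I and M stand at -0.38 on array 2 and 0.28 on array 3, and the 4 row groups lie close together on array 4.

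Rows taken in steps of 4 and columns in steps of 12 give 48 well classes. With values limited to 1.5 on either side of 0, these classes held 25.3% of the variance on array 2 and 23.7% on array 3, 13.2% on array 5, 10.0% on array 6, and 2.88% and 1.86% on arrays 1 and 4 (adjusted R squared). With each array centred within these classes, a setting chosen after seeing the data, ZX-00129I19 moved to -0.67 on array 2 and -0.74 on array 3, and ZX-00124H16 to -0.64 and -0.97. The same 7 Clps probes had means from -0.87 to -0.53 after this step and were again past the threshold, with adjusted p from 0.00363 to 0.0283. The SD over arrays was smaller for 6 of these 7 probes, for example 0.14 for ZX-00129I19 and 0.16 for ZX-00124H16. ZX-00128F05 was the exception, with an SD of 0.30. In this fit 8.18% of all probes were past the threshold under 0 and 4.06% above 0. ZX-00128F01 then stood at -0.29 with an adjusted p of 0.140, and ZX-00128D01 at -0.09 with an adjusted p of 0.672.

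**Figure D3:**
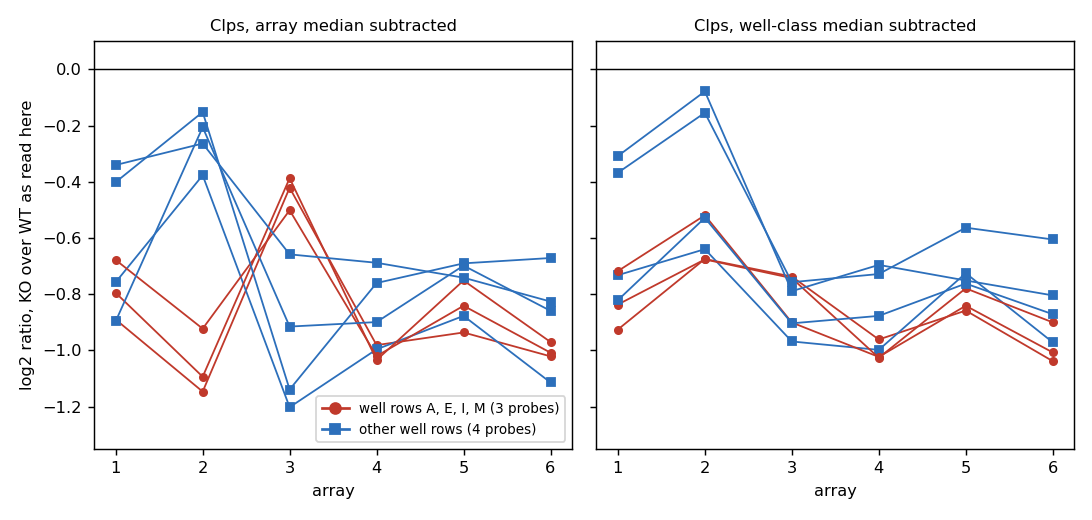
Log2 ratio (vertical axis) of the 7 Clps probes past the threshold on arrays 1 to 6, with the array median subtracted (left) and with the median of each well class subtracted (right). On the left the 3 probes of rows A, E, I and M (circles) and the 4 others (squares) part on arrays 2 and 3, and on the right the circles lie between -0.90 and -0.74 and the squares between -0.97 and -0.76 on array 3, while on array 2 the circles lie between -0.68 and -0.52 and the squares between -0.64 and -0.08.

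The Clps calls needed nearly all arrays. Without array 2, 7 Clps probes were past the threshold and without array 3, 3 were, but without array 1, 4, 5 or 6 there were 0 by limma. In the whole table, 1072 of 20502 probes were past it without array 2 and 45 of 20625 without array 3. In the 4 fits without array 1, 4, 5 or 6, 18, 11, 10 and 13 of all probes were past it. The 7 Clps probes had an unadjusted p under 0.05 in each of them, as did 22.4% to 24.8% of all probes. With arrays 2 and 3 both left out, also a setting chosen after seeing the data, 0 Clps probes were past the threshold by limma, while 0.0336% of all probes were past it under 0. At an unadjusted p under 0.05 there were 8 Clps probes, one of them ZX-00128D01, which lay above 0 at 0.24, and 23.4% of all probes. In that setting the smallest adjusted p of a Clps probe was 0.0751. Over the 6 fits without 1 array the means of the 7 probes stayed between -0.99 and -0.53. The means on arrays 1 and 2 and on arrays 3 to 6 are given apart because their labels differ. For ZX-00129I19 they were -1.02 and -0.84, and for ZX-00129C24 they were -0.28 and -0.82. No member probe had a difference between these array sets past the threshold, with a smallest adjusted p of 0.307 in limma, and neither did any of the others (0%). At an unadjusted p under 0.05 there were 6 of the 23 member probes and 15.4% of all probes.

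As 1 value per gene, the mean of its 9 probes, Clps stood at -0.54, -0.44, -0.65, -0.70, -0.50 and -0.69 on arrays 1 to 6. The mean was -0.59 ± 0.11 (SD, n = 6), with a limma adjusted p of 0.0176 over 10818 genes, of which 3.47% were past the threshold under 0 and 2.36% above 0. All 6 arrays were under 0. This call was lost without array 1, 3, 4, 5 or 6, with adjusted p from 0.0534 to 0.0770 and means from -0.60 to -0.56, and without arrays 2 and 3 both, with an adjusted p of 0.101. Without array 2 it was kept, with an adjusted p of 0.0241. Clps, on chromosome 17 (positions 28558210 to 28560766, GRCm38.p6), was the 1 member gene past the threshold in this form.

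Neither measured lipase gene was past the threshold. Cel, at its 1 probe, had -0.11, 0.00, -0.11, 0.07, 0.02 and 0.32 on arrays 1 to 6, a mean of 0.03 ± 0.16 and an adjusted p of 0.827. Its values lay on both sides of 0, and the 95% t interval of the mean was -0.14 to 0.20. Pnliprp2, which hydrolyses galactolipids and phospholipids as well as triglycerides, had -0.29, 0.36, -0.21, -0.04, -0.04 and -0.06, a mean of -0.05 ± 0.22 and an adjusted p of 0.784. It was under 0 on all arrays except array 2, and after centring within well classes it was at -0.16 ± 0.11 with an adjusted p of 0.114. The interval of Pnliprp2 was -0.28 to 0.19, so the gene mean of Clps, given above, lay outside both intervals.

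Pla2g1b, the phospholipase that acts on phospholipids in the gut after trypsin activates it, had 1 of 10 probes past the threshold. This probe, ZX-00125P20, had -0.35, -0.61, -0.56, -0.22, -0.25 and -0.36 on arrays 1 to 6, a mean of -0.39 ± 0.16 and an adjusted p of 0.0446. None of its values lay above 0, and after centring within well classes it stood at -0.34 with an adjusted p of 0.0273. The other 9 probes had means from -0.19 at ZX-00125E23 to 0.26 at ZX-00130H13, 5 of them under 0 and 4 above. ZX-00126K17, at -0.12 ± 0.12, was also under 0 on all 6 arrays, with an adjusted p of 0.319, while 12.3% of all tested probes were under 0 on every measured array. As a gene mean Pla2g1b stood at -0.04 ± 0.07 (n = 6) with an adjusted p of 0.728, and no other probe of the gene was past the threshold. Centred within well classes, 8 of the 10 probe means were under 0, and the gene mean was -0.08 with a limma adjusted p of 0.330. Without any 1 array ZX-00125P20 was no longer past the threshold, with adjusted p from 0.0528 to 0.117. On the probe ZX-00128L19, measured on 5 arrays, 80% of the ratios were quotients of whole numbers up to 20, against 23.2% of all values in the table.

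Amylase could not be resolved. The Amy2 probe MMC01C03 had 0.01, -0.95, 2.58, 1.02, 0.80 and 0.52 on arrays 1 to 6, a mean of 0.66 ± 1.17 and an adjusted p of 0.331. The probe MMC01B04 had -0.89 on array 1, -0.51 on array 2, 0.72 on array 4 and 1.75 on array 6, with no value on the others, a mean of 0.26 ± 1.20 (n = 4) and an adjusted p of 0.754. Array 2 was under 0 and arrays 4 and 6 above 0 for both. The means were -0.47 and -0.70 on arrays 1 and 2, and 1.23 at each probe on arrays 3 to 6, but this difference between the array sets was not past the threshold, with adjusted p of 0.319 and 0.307. The symbol Amy2 covers several near-identical amylase genes, which these probes may not tell apart.

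Clps set against the other members was lower in ratio on most arrays. The gene mean of Clps minus that of Pla2g1b was -0.55 ± 0.14 (SD, n = 6) and under 0 on 6 of 6 arrays. Minus Cel it was -0.62 ± 0.23, and minus Pnliprp2 -0.54 ± 0.19, each under 0 on 6 of 6 arrays. Minus Amy2 it was -1.29 ± 1.27 and under 0 on 5 of 6. These differences are descriptions without a test, because Clps was singled out with its ratios known.

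Other genes of the acinar secretory programme, the proteases, the trypsin inhibitor and proteins of the zymogen granule among them, had 2 of 18 measured genes past the threshold under 0, none above 0 and 16 not past it. A gene was counted where at least 1 of its probes passed, which held under 0 for 5% of all 10818 genes and above 0 for 3.25%. Cpa1, a carboxypeptidase, passed at 3 of 3 probes, at -0.50 ± 0.16, -0.48 ± 0.23 and -0.41 ± 0.14 (SD, n = 6). Spink1, the trypsin inhibitor of zymogen granules, passed at 1 of 2 probes, at -0.82 ± 0.14 with an adjusted p of 0.0126, and the other was at -0.26. The probe at -0.82 was thus within the range of the Clps probes, and those of Cpa1 were nearer to 0. The median of the 18 gene means was -0.04, against 0.05 over all genes, and 10 of 18 were under 0. After centring within well classes 4 of the 18 genes passed the threshold under 0, still with none above 0, as the chymotrypsinogen Ctrb1 passed at 3 of 10 probes and the elastase Cela1 at 1 of 2 beside Cpa1 and Spink1. Of all genes 10.8% passed under 0 by this rule after that centring, and 6.38% above 0.

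**Figure D4:**
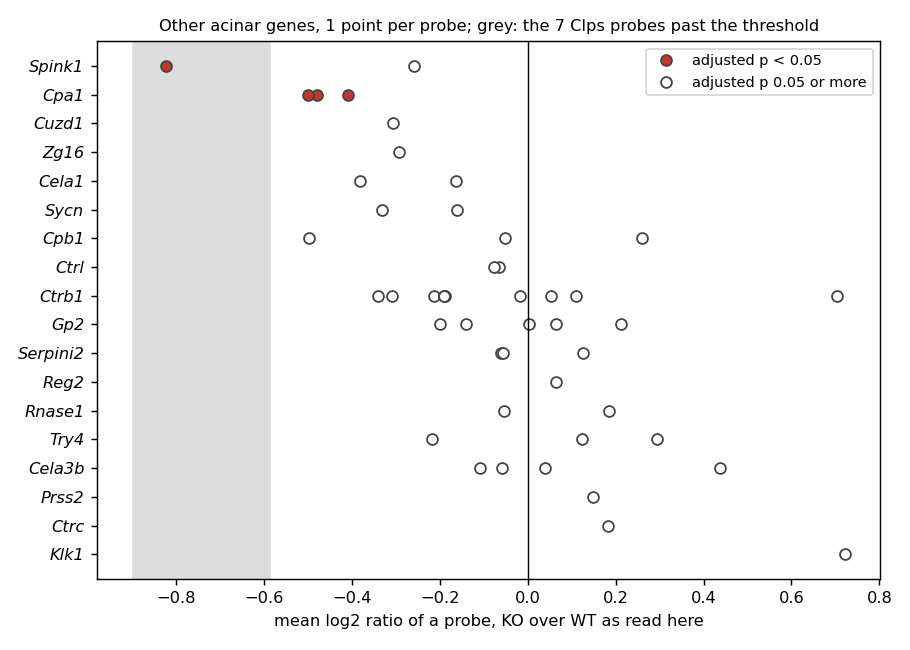
Mean log2 ratio of each probe of the 18 other acinar genes, 1 point per probe, read as KO over WT, filled where the adjusted p is under 0.05. The grey band marks the Clps probes past the threshold, -0.90 to -0.59; 1 Spink1 probe lies inside it, the Cpa1 probes lie between it and 0, and the remaining probes spread from -0.50 to 0.72.

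Of 3 measured regulators of exocrine genes, 1 was past the threshold, under 0. By the same rule 5% of all genes were past it under 0 and 3.25% above 0. Nr5a2, whose product binds the half-site searched above, had 1 probe. This probe had -0.59, -0.39, -0.95, -1.03, -1.18 and -1.32 on arrays 1 to 6. Its mean was -0.91 ± 0.36 with a limma adjusted p of 0.0302, and no array lay above 0. Ptf1a stood at 0.20 ± 0.11, with 0 of 6 arrays under 0 and an adjusted p of 0.127, and the probes of Bhlha15, a factor of the mature acinar secretory apparatus, were at 0.21 and -0.30.

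Lipases and phospholipases from outside the acinar set had no member past the threshold in limma. Counted by at least 1 probe, 5% of all genes were past it under 0 and 3.25% above 0. Of 8 other lipase genes with 53 probes, the smallest p was at a probe of Lipf, gastric lipase, at -0.28 ± 0.11 with an adjusted p of 0.0633. Of 3 other secreted phospholipases A2, Pla2g12b was at -0.25 ± 0.12 with an adjusted p of 0.0810. After centring within well classes, the probes of Lipf and Pla2g12b just named were past the threshold, at -0.19 and -0.33 with limma adjusted p of 0.0455 and 0.0204. In that setting 10.8% of all genes passed under 0 and 6.38% above 0. Of 3 carboxylesterases, Ces2f was at -0.43 ± 0.37 with an adjusted p of 0.114. The other amylase symbols searched had no tested probe.

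The probes most like Clps over the 6 arrays, among 15546 probes of other genes with values on all arrays, belonged to Fxyd2, Hprt, Tm4sf1, Lyve1 and Clec14a. Likeness was the root-mean-square difference from the per-array median of the Clps probes, and it was 0.09, 0.14, 0.17, 0.19 and 0.19 in log2 units. Fxyd2, a regulator of the sodium pump, averaged -0.61 ± 0.30. Hprt, of purine salvage, averaged -0.59 ± 0.17. Lyve1, a receptor of lymphatic vessels and some macrophages, averaged -0.74 ± 0.11. The 5 share the arrays and their centring with Clps, and array 2 stood closest to 0 in each of them. Array 2 was also closest to 0 in the Clps median, at -0.26. The choice by likeness thus favours this trait and similar means.

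Markers of other tissues gave the following ratios beside the Clps result. Of 10 measured liver genes, 5 were past the threshold under 0 (Afp, Ambp, Fgb, Fgg and Vtn) and none above 0. By the rule of at least 1 probe, 5% of all genes were past it under 0 and 3.25% above 0. Over the 10 genes the median gene mean was -0.39, with array medians from -0.57 to -0.33, and 7 gene means were under 0. The gene means above 0 were those of Apoc3, with probes at 0.36 and -0.10, Apoh, at 0.08, and Hpx, at 0.03. The 4 Afp probes stood at -2.06, -2.05, -1.90 and 0.006, the last not past the threshold. Fgg was at -1.14, Fgb at -1.12 and -0.92, and Ambp at -0.77. Vtn was at -0.94 at the probe past the threshold and at -0.06 at the other. None of 9 stomach and intestine genes and none of 3 pancreatic epithelium genes passed, with median gene means of -0.03 and -0.01. Of 4 islet genes, Ins2 was past the threshold above 0, at 0.54 and 0.52 at 2 of 3 probes. Sparc, among 5 mesenchyme genes, passed at 1 of 2 probes (-0.31), and Hba-a1, among 5 erythroid genes, at 1 of 17 (0.40). After centring within well classes Sox9 passed at -0.49 (limma adjusted p 0.0226). Gkn1 then passed at 1 probe under 0 and 1 above 0 of 11, and Gkn2 at 1 of 4, above 0. In that setting 7 liver genes passed under 0, as Alb (-0.27) and Ttr (-0.34 and -0.23) joined the 5, and none above 0. Ins2 passed at 1 probe (0.54) and Hba-a1 at 0.30 and 0.21, while Hbb-y passed under 0 at 1 of 3 probes (-0.36). Sparc no longer passed, at -0.17 (limma adjusted p 0.0796). Of all genes 10.8% passed under 0 and 6.38% above 0 there. Levels of these markers in either RNA are not known, and their part in the Clps ratio was not tested.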

How the data were processed

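The authors' deposited values are log2 ratios, 1 for each probe on each array, and base 2 was inferred from its highest values, just above 16.6. Linear amplification and indirect labelling are stated per the labels of arrays 1 and 2. No source used here gives the dyes, the direction, the scanner or the normalization, and signal over background is unknown. The number of arrays limits the precision.

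Ceiling values (40 to 257 per array) were set to missing. Array medians of -0.007 to 0.198 were subtracted, and 21247 probes with at least 4 values were fitted with limma 3.58.1 (lmFit, eBayes, intercept only) in R 4.3.3, two-sided against 0. P-values were adjusted by Benjamini-Hochberg across the whole table, and 0.05 was the threshold. Figures used matplotlib 3.10.9. Of the probes, 18388 had 1 symbol, 66 several and 3434 none, and 17786 symbols were brought up to date through their Entrez ID. The fit was tested on simulated data.

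The members and gene lists were chosen with earlier results of these data known. All member probes are named or counted. List members past the threshold, or the one with the smallest p, are named, and so are the 5 probes most like Clps. Marker genes were named after their values were seen. A quotient of whole numbers was counted within 6e-04 in log2. Alternatives were other centring, normalization, filters, weights, array subsets and 1 value per gene.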

Additional observations from a re-analysis of the deposited data

Results flagged for a closer look

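A single array stood well apart from the remaining arrays, judged by its gap as a share of the range, at 3 of 23 member probes and at 0 of 6 gene means and array measures. The rule is set to pick about 1 in 20 where the values are independent and normally distributed. How often it picks an array among all probes was not counted, so 3 of 23 has no background here. For Clps, ZX-00129I19 gave -0.42 on array 3, with -0.89 as the next value, and -0.74 on that array after centring within well classes. ZX-00129G15 gave -0.21 on array 2, with -0.70 as the next value, and -0.53 after the same centring. For Pla2g1b, ZX-00125E23 gave -0.91 on array 2, while its remaining arrays lay between -0.26 and 0.10. After the same centring its value on array 2 was -0.34.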

How the results depend on the processing

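The 8 member probes past the threshold under 0 stayed 8 with scale or quantile normalization, values on at least 2 or on all 6 arrays, array weights, robust eBayes, the ceiling kept, whole-number quotients removed, or centring within well classes. In that order the calls among all probes were 1786, 1719, 1029, 1678, 2402, 1070, 1112, 1613 and 2602, against 1166 in the main fit. Values on all 6 arrays left 18178 probes to test and the removal of quotients 18697, against 21247. They were 7 with the array set as a term, 6 without centring, and 1 gene with 1 value per gene. They were 0 in a test against a log2 change of 0.2, on arrays 1 and 2 alone, on arrays 3 to 6 alone and without arrays 2 and 3, where 8, 5, 8 and 8 lay under 0 with an unadjusted limma p under 0.05, as did 10.8%, 14.2%, 30.6% and 23.4% of all probes in either direction. Each array left out in turn gave 0 to 7 (0 without array 1, 4, 5 or 6, 3 without array 3). Fewer arrays enter these fits. Above 0 the count was 0 throughout, with 0 to 2 at an unadjusted limma p under 0.05. For the difference between array sets it was 0 throughout, with 1 to 8 member probes and 6.87% to 21.9% of all probes at an unadjusted limma p under 0.05.

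Of all tested probes, 1166 were past the threshold. Their number was 1786 with scale normalization, 2402 with array weights, 37 against a change of 0.2, 0 on arrays 1 and 2 alone (2953 at an unadjusted limma p under 0.05), 13 on arrays 3 to 6 alone, 694 with the set as a term, 2602 with well-class centring, 7 without arrays 2 and 3, and 630 genes with 1 value per gene. Each array left out in turn gave 10 to 1072. Without centring there were 1258 calls, of which 67.5% were above 0, against 35.7% with centring, and the median of all probes shifted by 0.102. The well-class setting and the removal of arrays 2 and 3 were chosen after seeing the data.

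The 8 probes and Clps as a gene kept their sign in every setting, but the Clps gene mean was past the threshold in 1 of the 6 fits that leave out 1 array. Of 580 single values under alternatives, 462 kept sign and side, 82 lost the threshold, and 36 changed sign, all of them values not past it. Only the 9 results past the threshold could lose it, and they made up 189 of the 580 values. The cause of these changes was not tested. With array weights ZX-00129O14 was at -0.013 and ZX-00128F01 at -0.030. On arrays 1 and 2 alone MMC01B04 was at -0.70, MMC01C03 at -0.47, Amy2 at -0.59, ZX-00125L06 and Cel at -0.053, ZX-00129O18 at 0.079, ZX-00129O14 at -0.021, ZX-00128F01 at -0.019, ZX-00126H02 and Pnliprp2 at 0.035, and ZX-00127B14 at -0.11. Without arrays 2 and 3 ZX-00128J07 was at -0.095. On arrays 3 to 6 Pla2g1b was at 0.0026 and ZX-00125E23 at 0.0018. With well-class centring ZX-00128F01 was at -0.29, ZX-00127B14 at -0.057, ZX-00128D01 at -0.089 and ZX-00129O14 at -0.072. Without centring Pla2g1b was at 0.068, ZX-00126H02 and Pnliprp2 at 0.0575, ZX-00129K15 at 0.045 and ZX-00129O18 at 0.024. ZX-00128F01 was at -0.022 with quantile and -0.011 with scale normalization. With 1 array left out, ZX-00125L06 and Cel ranged from -0.026 to 0.060, ZX-00126H02 and Pnliprp2 from -0.13 to 0.0023, ZX-00128F01 from -0.11 to 0.085, ZX-00128J07 from -0.039 to 0.14, ZX-00129K15 from -0.090 to 0.0011, ZX-00129O14 from -0.054 to 0.14 and ZX-00129O18 from -0.15 to 0.0033. No paired analysis was possible because each ratio already sets KO against WT within 1 array, which leaves no further replicate number to use as a block.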

Other observations

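Lipf, the gene of gastric lipase, had 43 tested probes, more than any member. Their means ran from -0.33 to 1.11 with a median of 0.09, 19 under 0 and 24 above 0, and none was past the threshold, with a smallest adjusted p of 0.0633. The span of its probe means was thus wider than that of the 9 Clps probes, but a span tends to grow with the number of probes.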
